A study of Mus musculus with 12 samples.

Results

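The comparison described here is that of added salt in resting macrophages: 3 arrays titled HS against 3 arrays titled NS, 6 of the 12 arrays in the study. The arrays were chosen by their titles alone, and no measured value entered the choice. All 12 arrays were hybridised with RNA of RAW264.7, an established mouse macrophage line. HS cells received 40 mM of extra NaCl for 24 h, NS cells received none, and neither group received lipopolysaccharide (LPS), the bacterial cell-wall component that activates macrophages. The labels do not spell out NS and HS, and the salt dose and the time come from the study's design text. The other 6 arrays, NS+LPS and HS+LPS with 3 each, received 10 ng/ml LPS without or with the same salt, and they are used here for the spread between replicates and for one comparison. Being one line grown in culture, the cells cannot show what macrophages of a salt-loaded tissue would do.

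Adding NaCl to the medium makes it hypertonic, so that water leaves the cell, the cytosol becomes more concentrated and the cell shrinks. Cells first regain volume by taking up sodium, potassium and chloride, and then replace these ions with organic osmolytes such as betaine, myo-inositol, sorbitol, taurine and glycerophosphocholine. The transcription factor NFAT5, also called TonEBP, binds tonicity enhancer elements (TonE) and raises the genes for osmolyte uptake and synthesis. In macrophages NFAT5 is also known to act on inflammatory genes and on salt handling in the skin.

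A value below is the log2 signal of a gene's probe after subtraction of the array's 75th percentile, so that 0 is the signal of that percentile and 1 unit is a 2-fold difference. Levels of different probes cannot be compared with each other. The 3 NS arrays and HS replicate 1 lay in the first row of the same slide, and HS replicates 2 and 3 lay in its second row. The percentage of spots well above background was 50.1 to 51.2 on the NS arrays, 53.3 on HS replicate 1, and 47.2 and 47.7 on HS replicates 2 and 3. Pearson correlations across all probes with a value on every array were 0.985 to 0.994 within the groups and 0.986 to 0.988 between them. Of 12 macrophage markers, 11 were measured on these arrays, and Mertk was not above background. Of the 11, Adgre1 (-0.42), Cd68 (-0.29) and Aif1 (-1.60) were called lower in HS, Itgam (0.19) and Cd14 (0.37) were called higher, and Csf1r and Lyz2 were among those not called; the part of these differences in the results was not tested. The summed macrophage markers lay between 10.04 and 10.15 on NS arrays and between 10.05 and 10.18 on HS arrays. Of 43 markers of other cell types with a probe, 25 were above background on no NS or HS array, including Epcam, Ly6g and Cdh5, and 11 were measured, of which Cd3e and Pecam1 were higher and S100a8 was lower in HS. In RNA of a whole culture, fewer expressing cells and less RNA per cell cannot be told apart.

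Added salt changed the level of many genes by a little and of a few genes by a lot. A gene was taken as measured when its probe was well above background on all 3 arrays of NS or of HS, and as called when its adjusted p was under 0.05 by limma with Benjamini-Hochberg adjustment. Of 13009 measured genes, 4929 (37.9%) were called, 2366 (18.2%) higher and 2563 (19.7%) lower in HS. The sizes were mostly small: 3753 of the calls were under 0.5 in log2, the median difference over all measured genes was 0.01 and the median standard error (SE) was 0.0641. At least a 2-fold difference was reached by 317 called genes (2.44%), with 0.823% of all measured genes higher and 210 genes (1.61%) lower. Of these, 12 rises and 45 falls were above background in 1 group alone, where the fitted size is no bound. The arrays of the groups did not overlap for 6660 of the measured genes (51.2%).

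Among the HS arrays, replicate 3 stood farthest from NS. It was the highest of the 3 in 101 of the rises of at least 2-fold and the lowest in 156 of the 210 falls. The median rise was 1.51 on HS replicate 1, 1.42 on replicate 2 and 1.77 on replicate 3, and the median falls were -1.21, -1.20 and -1.48. The slide row was also used as a block on the shared slide (the row block below). Only HS had arrays in both rows, so the difference in that fit is HS replicate 1 minus the NS mean. With it 2499 genes were called, 962 higher and 1537 lower. Far fewer small differences were called, while the count at 2-fold or more was 292. For a call lost there, the row and the reliance on 1 HS array cannot be told apart. Within the first row, where HS has 1 array, the difference is the same. Under cyclic loess scaling 38.4% of the calls were higher, against 48.0% here.

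The 12 largest rises among genes above background on all 6 arrays brought together 2 osmolyte carriers, a sulfotransferase, defensin-related genes and genes better known from other tissues. Ambp, the precursor of the secreted proteins alpha-1-microglobulin and bikunin, read -2.11, -2.39 and -2.34 on the NS arrays and 1.56, 1.40 and 1.81 on the HS arrays. The HS arrays all lay far above the NS arrays, by 3.87 in log2 or 14.6-fold (SE 0.117, adjusted p = 1.96e-07 by limma). Dntt, the terminal transferase that lymphocytes use to add bases to antigen receptor genes, read -1.77, -1.86 and -1.84 on the NS arrays and 1.31, 1.18 and 1.80 on the HS arrays. Its groups also stood apart (3.25, SE 0.151, adjusted p = 6.93e-07 by limma), a 9.52-fold rise. Cldn11, a tight-junction claudin known from myelin, read 0.89, 0.87 and 0.96 on the NS arrays and 3.66, 3.46 and 4.04 on the HS arrays. It rose 7.04-fold, with HS replicate 3 highest and no overlap (2.82, SE 0.124, adjusted p = 6.21e-07 by limma).

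Shb, an SH2-domain adaptor of receptor signalling, read -0.58, -0.78 and -0.56 on the NS arrays and 1.92, 1.66 and 2.38 on the HS arrays, and both of its probes rose. The difference was 2.63 (SE 0.158). Tmem38b, a cation channel of the endoplasmic reticulum that balances charge during calcium release, read -1.16, -1.42 and -1.40 on the NS arrays and 0.98, 0.96 and 1.40 on the HS arrays, a difference of 2.44 (SE 0.119). In both genes the lowest HS array lay more than 2 log2 units above the highest NS array. Klhl30, of the kelch-like family, read 0.84, 0.94 and 0.87 on the NS arrays and 3.24, 3.07 and 3.85 on the HS arrays; its difference of 2.50 had an SE of 0.598 with all 12 arrays in the fit and of 0.195 on the 6 NS and HS arrays alone, and it was not called with the row block (adjusted p = 0.137 by limma). Chst1, which sulfates keratan sulfate, rose by 3.37 (SE 0.341), and Agmo, an enzyme that cleaves ether lipids, by 3.31 (SE 0.173).

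**Figure D1:**
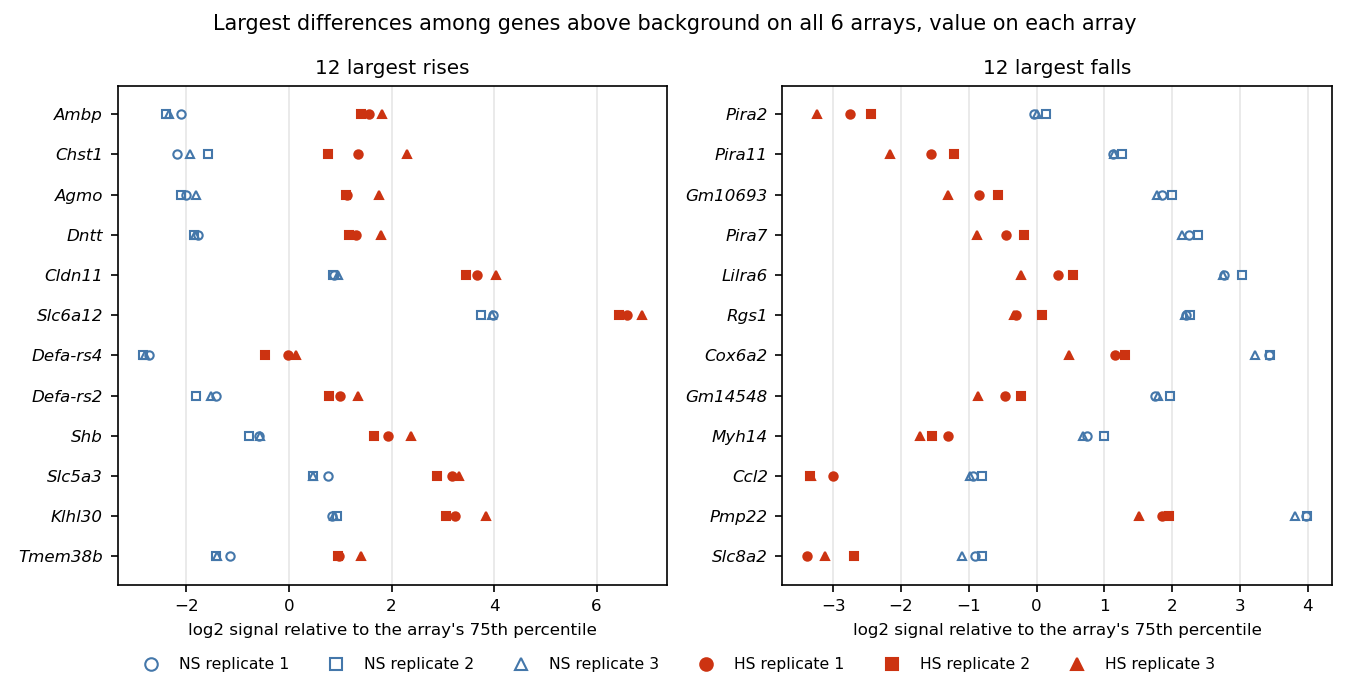
Log2 signal relative to the array's 75th percentile (horizontal axis) on each of the 6 arrays, for the 12 largest rises and the 12 largest falls among genes above background on all of them; open symbols are NS and filled symbols HS, 1 shape per replicate. Groups are apart in every row, and HS replicate 3 is the outermost HS array in most rows, for example at 1.81 in Ambp and -3.24 in Pira2.

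Genes that NS cells did not show above background could be given only a lower bound, taken from the dimmest signals that were above background. This held for 12 called rises, and the largest bounds were at least 9.55-fold for Prima1, which anchors acetylcholinesterase in membranes, 4.42-fold for Ranbp3l, a Ran-binding protein, 4.03-fold for the serotonin transporter Slc6a4, 3.54-fold for Defa23 and 3.19-fold for Accsl. Prima1 read -5.53, -5.33 and -5.70 on the NS arrays and -1.45, -1.83 and -0.92 on the HS arrays. Its 3 HS values stood more than 3 log2 units above every NS value, and the fit gave an adjusted p of 1.34e-06 by limma.

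Rab15, a small GTPase of endosomal recycling, had the highest fitted difference of all measured genes. It was above background on 2 of the 3 NS arrays, which kept it out of the rules for naming genes, and it was picked after its values were seen. It read -4.89, -4.13 and -4.25 on the NS arrays and 1.57, 1.07 and 2.62 on the HS arrays. The HS values were the more spread out but lay more than 5 log2 units above the NS values (6.18, SE 0.348, adjusted p = 1.63e-06 by limma, 72.4-fold). The value comes from 1 probe at chr12:77898991-77899050 (mouse build mm9). A second Rab15 probe, above background on 2 NS arrays and no HS array, gave -0.10 and was not called, and the mean of both probes gave 3.04. The rise was thus read by 1 of 2 probes. With normexp background correction it was 4.47.

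The measured alpha-defensins, small antimicrobial peptides known from Paneth cells of the gut, were higher in HS, and they too were picked after their values were seen. The array has probes for 26 genes named Defa, of which 9 were measured. All 9 were called higher (18.2% of all measured genes were), 8 of them at least 2-fold, with differences from 0.92 to 3.69. Defa23 was above background on no NS array, and Defa1, Defa3, Defa32 and Defa40 on 2, 1, 2 and 2 of them. These genes counted as measured through HS alone, which favours a rise, so the count of 9 is a description. Defa-rs10 and Defa31, above background on all 6 arrays, rose by 1.65 and 1.62. Defa1 read -5.04, -4.28 and -4.19 on the NS arrays and -0.93, -1.17 and -0.33 on the HS arrays, and Defa-rs2 read -1.43, -1.82 and -1.53 on the NS arrays and 1.00, 0.77 and 1.35 on the HS arrays. In all 9 genes every HS array was above every NS array, and the groups did not overlap in 51.2% of all measured genes. Defa-rs2 and Defa-rs4, at differences of 2.63 and 2.68, were the members above background on all 6 arrays that ranked among the 12 largest rises. The family's genes are alike in sequence: in 3 of the 36 probe pairs, covering 6 genes, at least 45 of the 60 bases matched, so these 9 readings may share transcripts.

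Genes of osmolyte uptake and synthesis rose in part. Of 7 measured osmolyte transporters 5 were called higher and 1 lower, and of 8 osmolyte enzymes 4 were higher and 1 lower. Over all measured genes 18.2% were called higher and 19.7% lower. The medians of transporters and enzymes were 0.35 and 0.23, against 0.01 over all measured genes. The betaine carrier Slc6a12 and the myo-inositol carrier Slc5a3 rose by 2.74 and 2.56. Beyond the 6 called members of largest size in a list and the genes fixed by name, members were added to show the roles after their values were seen; in this list they are Slc38a2, Slc6a9, Slc7a5, Akr1b8, Isyna1, Pnpla6, Hspa4l and S100a4. The taurine carrier Slc6a6 rose by only 0.17 (SE 0.0523), a call lost in 8 of the 21 alternatives. Slc38a2, a sodium-coupled carrier of neutral amino acids known to respond to tonicity, read 5.14, 5.28 and 5.38 on the NS arrays and 5.88, 5.93 and 6.10 on the HS arrays. It rose by 0.70 (SE 0.0746) without overlap. The glycine carrier Slc6a9 rose by 0.35 and the large neutral amino acid carrier Slc7a5 fell by 0.32 on the log2 scale.

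Among the enzymes, aldose reductase Akr1b3, which makes sorbitol, rose by 1.10 and its relative Akr1b8 by 0.37, the second a call lost with the row block. Isyna1, the enzyme that makes inositol phosphate from glucose phosphate, rose by 0.50. Pnpla6, a phospholipase that makes glycerophosphocholine, rose by 0.61, whereas Gpcpd1, a phosphodiesterase that breaks it down, fell by 0.74 on the log2 scale, a call lost with the row block. Of NFAT5 and 5 of its regulators, only Nfat5 itself was called, at 0.83 (SE 0.0601). Of 6 other genes known to be raised by tonicity 3 were called, among them the heat shock family member Hspa4l at 0.69 and S100a4 at 0.37, besides Ranbp3l, and S100a4 was not called with the row block. Sgk1, a kinase induced by tonicity in kidney cells, gave -0.04 (adjusted p = 0.678 by limma) with overlapping groups.

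Fxyd2 and Atp1b3, accessory subunits of the sodium pump, rose. The pump exports 3 sodium ions for 2 potassium ions, and its FXYD subunits tune its affinity. Fxyd2, the gamma subunit known from the kidney, read 6.60, 6.40 and 6.49 on the NS arrays and 8.73, 8.66 and 8.92 on the HS arrays. It rose 4.84-fold on both of its probes (2.28, SE 0.0964, adjusted p = 6.21e-07 by limma), and its groups were 2 log2 units apart. Atp1b3, a beta subunit, read 4.56, 4.54 and 4.62 on the NS arrays and 5.50, 5.45 and 5.58 on the HS arrays, a rise of 0.94 (SE 0.0821). Fxyd5 was not called, at 0.03.

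Other ion carriers moved little. Of 8 cation-chloride cotransporters and their kinases 1 was called, the kinase Oxsr1 at 0.22, added like Lrrc8d below after its value was seen. Over all measured genes 18.2% were called higher and 19.7% lower. Slc12a2, the cotransporter that cells use to regain volume, gave 0.15 (adjusted p = 0.0965 by limma). Of 15 channels 5 were called higher and 6 lower; with the row block 0 were higher and 5 lower, and without NS replicates 1 or 2 or HS replicates 2 or 3 as few as 3 were higher. The subunits of the volume-regulated anion channel, which releases osmolytes from swollen cells, split: Lrrc8c fell by 0.44 on the log2 scale, Lrrc8e and Lrrc8d rose by 0.51 and 0.27, and the obligatory subunit Lrrc8a gave 0.18, a call lost in 13 of the 21 alternatives. Oxsr1, Lrrc8e and Lrrc8d were not called with the row block.

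The promoter of Slc6a12 is shown because its gene was the most raised of the osmolyte carriers and holds a TonE match. It covers the 250 bases before the transcription start in the RefSeq table of build GRCm38.p6, chr6:121342324-121342573 on the plus strand, and the capitals mark the match, which begins 75 bases before the start.

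Slc6a12: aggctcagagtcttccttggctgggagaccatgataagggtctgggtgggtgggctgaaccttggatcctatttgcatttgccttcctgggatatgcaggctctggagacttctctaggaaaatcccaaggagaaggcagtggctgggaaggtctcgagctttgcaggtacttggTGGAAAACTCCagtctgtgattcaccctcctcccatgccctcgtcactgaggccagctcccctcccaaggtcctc

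TonE was searched on both strands from 250 bases before to 50 after the start in 27025 genes and was found in 5.74% of them. Of the 10264 measured genes among them 4.55% held it. Among 11 called-higher genes of the osmolyte and tonicity list with an entry, 2 held a match, Pnpla6 and Slc6a12, and of 9 others of the list 0 did. Of 76 genes raised at least 2-fold 7 held one (9.21%), and of 157 lowered at least 2-fold 13 did (8.28%).

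The largest falls were led by paired immunoglobulin-like receptors, a family of activating and inhibitory receptors on myeloid cells that bind MHC class I molecules. All 4 measured activating members were called lower (19.7% of all measured genes were), with a median of -2.79, and of 8 measured inhibitory members of the wider receptor list 5 were lower and 1 was higher. Pira7 read 2.25, 2.38 and 2.15 on the NS arrays and -0.45, -0.19 and -0.88 on the HS arrays. It fell by 2.76 on the log2 scale (SE 0.152, adjusted p = 1.40e-06 by limma), and every HS array was below every NS array. Lilra6 read 2.76, 3.03 and 2.75 on the NS arrays and 0.31, 0.54 and -0.22 on the HS arrays. It fell by 2.64 on the log2 scale, and all 3 of its probes were called lower. Pira2, Pira11 and the predicted genes Gm10693 and Gm14548 fell by 2.85, 2.82, 2.78 and 2.36 on the log2 scale.

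These receptor genes are close copies of one another. The best matching pair of their probes, Pira7 and Gm10693, shared 46 of 60 bases, and the Pira7 and Pira11 probes overlap in the genome, so the readings may share transcripts and the number of separate genes that fell is not known. Of the inhibitory receptors, Lilr4b fell by 1.49 on the log2 scale (SE 0.0772), Pilra by 1.48 and, chosen after their values were seen, Lilrb4a by 1.29 and Cd300lf by 1.47. Pirb itself was undecided: its leading probe rose by 0.18 and its second probe fell by 2.25 on the log2 scale.

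Several other large falls were genes of muscle, nerve or signalling. Cox6a2, the muscle form of a cytochrome c oxidase subunit, read 3.43, 3.44 and 3.22 on the NS arrays and 1.16, 1.30 and 0.48 on the HS arrays. It fell by 2.38 on the log2 scale (SE 0.182), furthest on HS replicate 3. Pmp22, a membrane protein known from peripheral myelin, read 3.97, 3.99 and 3.81 on the NS arrays and 1.85, 1.96 and 1.52 on the HS arrays. Its fall of -2.15 (SE 0.0978, adjusted p = 6.55e-07 by limma) was seen on both probes, and no HS array came within 1.5 log2 units of an NS array. Slc8a2, a sodium-calcium exchanger known from brain, read -0.91, -0.80 and -1.10 on the NS arrays and -3.38, -2.70 and -3.12 on the HS arrays, a difference of -2.12 (SE 0.149). Myh14, a non-muscle myosin heavy chain, fell by 2.34 on the log2 scale on 1 probe, and its other probe gave 0.18 and was not called.

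Of the falls, 66 were called in genes above background on no HS array. The largest bounds were at least 4.59-fold lower for Gpr34, a receptor for lysophosphatidylserine, 3.38-fold for the platelet chemokine Pf4, 2.58-fold for the neutrophil chemokine Cxcl2, 2.42-fold for the repressor Gfi1b and 2.41-fold for the formin Fhod3. Pf4 was not called with the row block. Gfi1, a relative of Gfi1b known from myeloid differentiation, went the other way, at 1.37 (SE 0.143).

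Surface receptors by which macrophages sense their surroundings were lower more often than higher. Of 15 measured G-protein coupled receptors of the purinergic and orphan list 11 fell and 1 rose, with a median of -0.45, against 19.7% lower and 18.2% higher over all measured genes. S1pr1, the sphingosine-phosphate receptor of cell egress, fell by 1.76 on the log2 scale (SE 0.328), and Hcar2, the niacin receptor, by 1.15 (SE 0.0628). The complement receptor C3ar1 read 1.87, 2.00 and 1.85 on the NS arrays and -0.03, 0.22 and -0.34 on the HS arrays. It fell by 1.96 on the log2 scale (SE 0.115) with no overlap, and C5ar1 by 0.87. The regulators of G-protein signalling split, with Rgs1 and Rgs2 at -2.40 and -1.30 and Rgs16 at 1.20.

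Of 7 C-type lectins 6 fell and 0 rose, against 19.7% and 18.2% of all measured genes, and 3 fell with the row block. The fungal glucan receptor Clec7a and Clec4n fell by 1.49 and 1.45 on the log2 scale. Clec2d was above background on no HS array, at least 1.22-fold lower, and was not called with the row block. Of 8 Fc and complement receptors 6 fell and 1 rose. Itgax, the alpha chain of complement receptor 4, read 0.30, 0.34 and 0.22 on the NS arrays and -0.90, -0.79 and -1.21 on the HS arrays. It fell by 1.25 on the log2 scale (SE 0.0969), and the groups stood apart. Of 8 scavenger receptors 4 fell and 1 rose, with Cd36 and Stab1 lower by 2.02 and 1.31 on the log2 scale. Other receptors were more evenly split. Of 10 Toll-like receptors and partners 3 fell and 2 rose, and of 7 genes of apoptotic cell clearance 3 fell and 2 rose.

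Of 6 measured CC chemokines 5 fell and 1 rose. Ccl2, the monocyte attractant, fell by 2.32 on the log2 scale, Ccl6 by 1.09 (SE 0.0778) and Ccl4 by 0.82 (SE 0.0513); Ccl5, chosen after its value was seen as the exception, rose by 0.76. Of 15 cytokines 7 fell and 2 rose, and of 17 cytokine receptors 9 fell and 1 rose, against 19.7% and 18.2% of all measured genes. Gdf15, a cytokine of stressed cells, read 1.14, 0.95 and 0.94 on the NS arrays and -0.95, -0.75 and -1.06 on the HS arrays. It fell by 1.93 on the log2 scale (SE 0.0819, adjusted p = 6.21e-07 by limma), and HS lay wholly below NS. Csf1, the macrophage growth factor, was called on 1 of its 3 probes, above background on no HS array and at least 1.99-fold lower. On the log2 scale Igf1 fell by 1.34 on 4 of its 5 probes and the growth factor Pdgfb by 1.23 on both. The inflammatory genes Nos2 and Tnf gave 0.16 and -0.06 and were not called, and Il6 and Il1b were not above background in either group. Arg1 and Vegfc did not pass the filter on low signal.

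Interferon-stimulated genes were lower in resting cells with added salt. Of 64 measured genes of the list 42 fell and 6 rose, against 19.7% and 18.2% of all measured genes, and with the row block 30 fell and 3 rose. The median was -0.36, or -0.35 with 3 genes that were not above background in 1 group set at their bounds. All 5 measured members of the p200 family, DNA-binding proteins encoded next to each other on chromosome 1, fell. Ifi207 read 3.02, 3.12 and 3.05 on the NS arrays and 1.78, 1.96 and 1.81 on the HS arrays. It fell by 1.21 on the log2 scale on both probes (SE 0.0538, adjusted p = 6.21e-07 by limma), with narrow groups and no overlap. Ifi202b and Ifi204 fell by 1.43 and 1.20 on the log2 scale.

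Of 7 OAS genes, which make the 2-5A signal that activates RNase L, 6 fell and 0 rose. Of 22 other antiviral effectors 15 fell and 0 rose, against 19.7% lower and 18.2% higher over all measured genes. Oas1a read 6.41, 6.28 and 6.25 on the NS arrays and 5.59, 5.73 and 5.68 on the HS arrays, and Isg15, a ubiquitin-like modifier, read 2.80, 2.59 and 2.46 on the NS arrays and 2.19, 2.26 and 2.29 on the HS arrays. Both were chosen for their promoters after their values were seen. Their differences of -0.64 and -0.37 were modest, neither gene had an HS array as high as its lowest NS array, and Isg15 was not called with the row block. The nucleic acid sensor Zbp1 fell by 1.13 on the log2 scale (SE 0.0674). Mx1, which blocks viral ribonucleoproteins, fell by 1.27 and the factor Irf7 by 0.36 on the log2 scale, and neither was called with the row block. Mx1 was above background on only 1 of the 3 HS arrays, so its fitted size is uncertain. Of 6 IFIT and IFITM genes 2 fell and 1 rose, of 9 inducible GTPases 5 fell and 2 rose, and of 8 nucleic acid sensors 4 fell and 3 rose. The genes that rose included the sensors Tlr7 (0.56) and Aim2 (0.38), chosen as exceptions after their values were seen.

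Antigen presentation by MHC class I followed the same direction. Of 14 measured genes of the class I pathway 11 fell and 0 rose, with a median of -0.30. Over all measured genes 19.7% fell and 18.2% rose. The peptide transporter subunits Tap1 and Tap2 fell by 0.75 and 0.53 on the log2 scale, and the immunoproteasome subunit Psmb9 by 0.74. Of 7 co-stimulatory and inhibitory ligands 5 fell and 1 rose. Cd274, the inhibitory ligand PD-L1, read -2.61, -2.22 and -2.44 on the NS arrays and -4.00, -3.00 and -3.45 on the HS arrays, a difference of -1.06 (SE 0.208). HS replicate 2 was the highest of the HS arrays, still below the lowest NS array. Cd40 fell by 1.00 and Vsir by 0.59 on the log2 scale, the second on 1 of 2 probes.

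The promoters of Isg15 and Oas1a are shown as examples from the interferon list that hold the interferon-stimulated response element (ISRE), searched as GAAANNGAAA on both strands. Overlapping matches were merged, and they span bases 78 to 57 before the start in Isg15 (chr4:156200819-156201068, minus strand) and 20 to 5 in Oas1a (chr5:120907526-120907775, minus strand). Both are the 250 bases before the start in the RefSeq table of GRCm38.p6, and the capitals mark the matches.

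Isg15: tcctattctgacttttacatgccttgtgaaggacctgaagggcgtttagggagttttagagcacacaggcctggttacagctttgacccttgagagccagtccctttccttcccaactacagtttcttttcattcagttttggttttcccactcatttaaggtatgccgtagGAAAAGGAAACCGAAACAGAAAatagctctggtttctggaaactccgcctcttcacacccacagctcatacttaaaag

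Oas1a: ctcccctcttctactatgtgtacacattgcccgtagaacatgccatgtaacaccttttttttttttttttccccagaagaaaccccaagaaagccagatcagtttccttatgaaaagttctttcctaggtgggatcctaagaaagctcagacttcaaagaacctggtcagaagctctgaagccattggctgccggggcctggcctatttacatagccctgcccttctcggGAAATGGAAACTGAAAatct

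From 250 bases before to 50 after the start, an ISRE match was found in 3.99% of all 27025 genes and in 3.81% of the 10264 measured ones. It was found in 20 of 33 called-lower genes of the interferon list with an entry (60.6%) and in 5 of 14 others of the list (35.7%), and in 17 of 157 genes lowered at least 2-fold (10.8%) against 6 of 76 raised at least 2-fold (7.89%).

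Genes of the integrated stress response, the programme by which ATF4 answers amino acid shortage and unfolded protein, were also lower. Of 50 measured genes 28 fell and 5 rose, against 19.7% and 18.2% of all measured genes, with a median of -0.18; the row block left 17 falls and 3 rises. Of its 9 transcription factors and close targets 8 fell. Atf3 read 4.30, 4.49 and 4.35 on the NS arrays and 2.46, 2.87 and 2.20 on the HS arrays. It fell by 1.87 on the log2 scale (SE 0.133, adjusted p = 6.33e-06 by limma), with HS replicate 3 lowest. Trib3, a pseudokinase that restrains the response, read 4.61, 4.48 and 4.50 on the NS arrays and 2.85, 3.01 and 2.40 on the HS arrays. It fell by 1.78 on the log2 scale (SE 0.127), and its groups were more than 1.4 log2 units apart. Ddit3 fell by 1.07, Atf5 by 0.73 and Atf4 itself by 0.24 on the log2 scale, the last a call lost with the row block.

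Chac1, which degrades glutathione, read 3.96, 4.11 and 3.94 on the NS arrays and 2.99, 3.17 and 2.74 on the HS arrays, a fall of -1.04 (SE 0.105). Cth, the last enzyme of cysteine synthesis from methionine, fell by 1.09 on the log2 scale on both probes. Asns, asparagine synthetase, was chosen after its values were seen for its well-known ATF4 site, and read 7.13, 7.09 and 7.01 on the NS arrays and 6.66, 6.73 and 6.59 on the HS arrays. Its difference of -0.42 was small and free of overlap. Of 12 amino acid synthesis genes 6 fell and 2 rose, and of 9 amino acid transporters 4 fell and 2 rose, Slc38a2 and Slc6a9 among the latter. Over all measured genes 19.7% fell and 18.2% rose. Of 12 tRNA synthetases 7 fell and 0 rose, but 4 to 6 fell when 1 array was left out, 4 at the fewest, and 3 with the row block. The chaperones of the endoplasmic reticulum hardly moved: 1 of 14 was called, Hyou1 at 0.26, a call lost with the row block, and of 7 sensors and degradation factors 1 rose, Xbp1 by 0.57, and 3 fell, Ern1 by 0.36, Edem1 by 0.31 and Sel1l by 0.18 on the log2 scale, while 1 fell with the row block.

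The promoters of Atf3, Chac1 and Asns are shown because these lowered genes hold the ATF4 composite element, searched as TGATGNAA on both strands. The windows are the 250 bases before the start in GRCm38.p6: chr1:191183334-191183583 (minus strand), chr2:119350992-119351241 (plus strand) and chr6:7693210-7693459 (minus strand). The match, in capitals, begins 110, 193 and 23 bases before the start.

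Atf3: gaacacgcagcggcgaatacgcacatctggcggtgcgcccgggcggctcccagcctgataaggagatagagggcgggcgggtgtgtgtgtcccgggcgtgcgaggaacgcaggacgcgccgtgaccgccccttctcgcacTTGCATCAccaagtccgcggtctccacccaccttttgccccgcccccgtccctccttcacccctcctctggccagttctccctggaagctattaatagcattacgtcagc

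Chac1: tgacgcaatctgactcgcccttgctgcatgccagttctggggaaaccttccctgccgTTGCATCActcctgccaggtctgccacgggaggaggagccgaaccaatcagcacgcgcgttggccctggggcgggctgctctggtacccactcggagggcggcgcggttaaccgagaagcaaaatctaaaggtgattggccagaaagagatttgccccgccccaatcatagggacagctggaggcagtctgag

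Asns: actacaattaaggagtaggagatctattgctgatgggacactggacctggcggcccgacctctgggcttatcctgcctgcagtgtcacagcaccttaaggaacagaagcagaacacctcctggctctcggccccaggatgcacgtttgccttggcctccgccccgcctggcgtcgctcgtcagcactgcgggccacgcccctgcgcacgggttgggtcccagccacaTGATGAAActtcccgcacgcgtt

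From 250 bases before to 50 after the start, the element was found in 4.51% of all 27025 genes and in 2.92% of the 10264 measured ones. It was found in 9 of 22 called-lower genes of the list with an entry (40.9%), in 5 of its 18 other genes (27.8%), and in 18 of 157 genes lowered at least 2-fold (11.5%) against 3 of 76 raised at least 2-fold (3.95%).

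**Figure D2:**
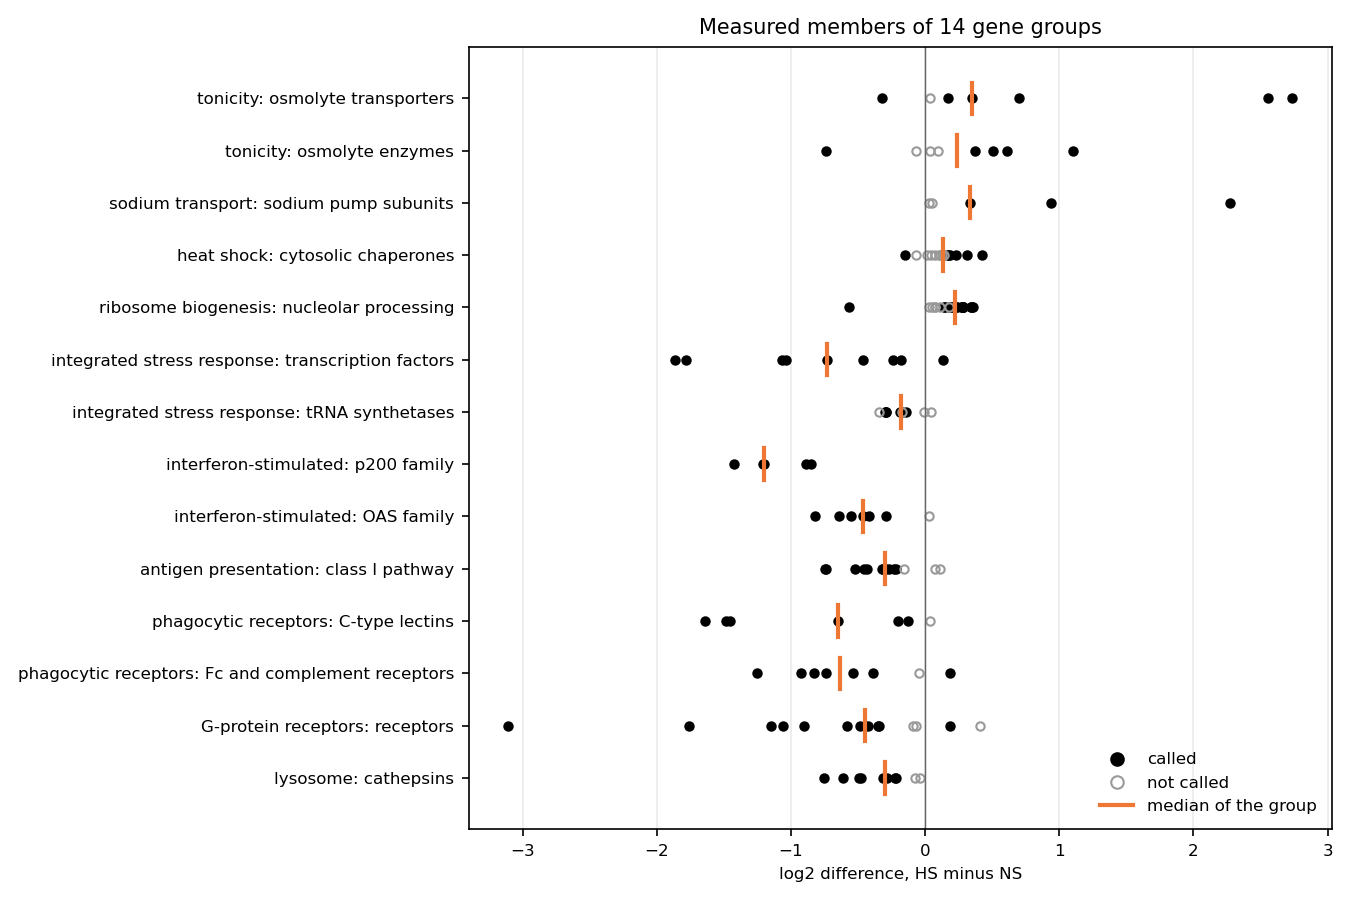
Log2 difference, HS minus NS (horizontal axis), of each measured member of 14 gene groups, with called members filled, others open and the group's median as a bar. The p200 family, the stress-response transcription factors and the C-type lectins lie mostly below 0, with medians of -1.20, -0.73 and -0.65 (the last -0.29 with Clec2d at its bound), while osmolyte transporters spread from -0.32 to 2.74.

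Cathepsins and lysosomal membrane proteins fell by small amounts. Of 10 cathepsins, the proteases of the lysosome, 8 fell and 0 rose, and of 12 membrane proteins and proton pump subunits 9 fell and 1 rose, with medians of -0.30 and -0.23. Ctsd read 7.46, 7.30 and 7.26 on the NS arrays and 6.74, 6.76 and 6.69 on the HS arrays, a difference of -0.61 (SE 0.0524). The HS values lay within 0.4 log2 units of each other and all below NS. The cholesterol exporter Npc1 fell by 0.71 and the pump subunit Atp6v0d2 by 0.90 on the log2 scale. Of 13 glycosidases and lipases 6 fell and 0 rose, with a median of -0.09, and of 14 autophagy genes 5 fell and 3 rose, with a median of -0.08; over all measured genes 19.7% were lower and 18.2% higher. Of 15 genes of lipid efflux and storage 7 fell and 2 rose. Cd5l, a secreted lipid-binding protein of macrophages, fell by 1.80 on the log2 scale, lipoprotein lipase Lpl by 0.97 and the cholesterol exporter Abca1 by 0.94, whereas Apoe rose by 0.56.

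Ribosome-making and chaperone genes were higher by small amounts, and most of these calls were lost with the row block. Fbl, the methyltransferase of ribosomal RNA, rose by 0.35 (SE 0.0524). Of 26 nucleolar processing genes, Fbl among them, 19 rose and 1 fell, against 18.2% and 19.7% of all measured genes, with a median of 0.23. With the row block 6 rose, and the median there was 0.18. Of 10 genes of RNA polymerases I and III 5 rose, 3 without HS replicate 3. Of 17 cytosolic chaperones 8 rose and 1 fell, 4 rose without HS replicate 3, and 0 rose with the row block, so that Hsph1 (0.42, SE 0.0813) and Dnaja1 (0.31) were not called there. Hsf1, the heat shock transcription factor, rose by 0.35 (SE 0.0403).

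Of 24 antioxidant enzymes and NRF2 targets 8 rose and 4 fell; between 2 and 10 rose when 1 array was left out, the fewest without HS replicate 3, and 0 with the row block. The heme-degrading Hmox1 fell by 0.34 on the log2 scale. Of 20 mitosis genes 5 rose, 1 without HS replicate 3 and 0 with the row block, and of 22 replication genes 2 rose and 1 fell; over all measured genes 18.2% rose and 19.7% fell. Of 11 clock genes 5 rose and 1 fell, Bhlhe40 by 0.61 on the log2 scale. Between 2 and 4 rose when 1 array was left out, and 1 rose with the row block. Respiratory chain and glycolysis genes gave few calls: 1 of 13 genes of complex I, and 4 of 21 glycolysis genes higher with 1 lower, with medians of 0.03 and 0.09 that turned negative under quantile normalization (-0.01 in both). When 1 array was left out, 0 to 2 genes of complex I were higher, and 2 to 6 glycolysis genes were higher and 1 to 3 lower. With the row block 0 were higher in either group. Sdha, Gapdh and Actb were not called, at 0.00, 0.13 and 0.15.

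Btg2 and Btg1, which shorten messenger tails and slow proliferation, rose by 1.55 (SE 0.0844) and 1.22 (SE 0.0813), and the stress protein Sesn1 by 1.00. The polo-like kinase Plk2 was above background on no HS array and was at least 2.07-fold lower, and of 21 measured p53 targets and inhibitors 5 rose and 9 fell. Of 14 macrophage lineage factors 8 fell and 2 rose: Klf4 fell by 0.94 and Egr2 by 0.92 on the log2 scale, whereas Gfi1 and Id3 rose. Of 11 AP-1 genes 6 fell and 0 rose, and over all measured genes 19.7% fell and 18.2% rose.

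Car2, the carbonic anhydrase by which osteoclasts make acid, read 4.83, 4.78 and 4.97 on the NS arrays and 6.71, 6.79 and 7.10 on the HS arrays. It rose by 2.01 (SE 0.0915, adjusted p = 6.55e-07 by limma), with HS replicate 3 highest. Itga4, the alpha chain of the VCAM1 receptor, rose by 1.31 on both probes. Of 11 osteoclast genes 2 rose and 4 fell, against 18.2% higher and 19.7% lower over all measured genes. The fusion protein Ocstamp fell by 0.91 on the log2 scale. The urokinase Plau fell by 1.39 on the log2 scale.

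The genes of proteoglycans and their sulfation, which carry fixed negative charge outside or within the cell, moved in both directions. Srgn, the proteoglycan of secretory granules, read 3.93, 4.03 and 4.02 on the NS arrays and 5.52, 5.43 and 5.83 on the HS arrays. It rose by 1.60 (SE 0.0853, adjusted p = 1.27e-06 by limma) with no overlap. The cell-surface proteoglycan Sdc3 fell by 1.57 on the log2 scale (SE 0.0631). The 2 heparan sulfate sulfotransferases Ndst1 and Ndst2 parted, Ndst1 at -1.39 on 2 of 3 probes and Ndst2 at 0.98. Chpf, which lengthens chondroitin chains, rose by 0.73.

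**Figure D3:**
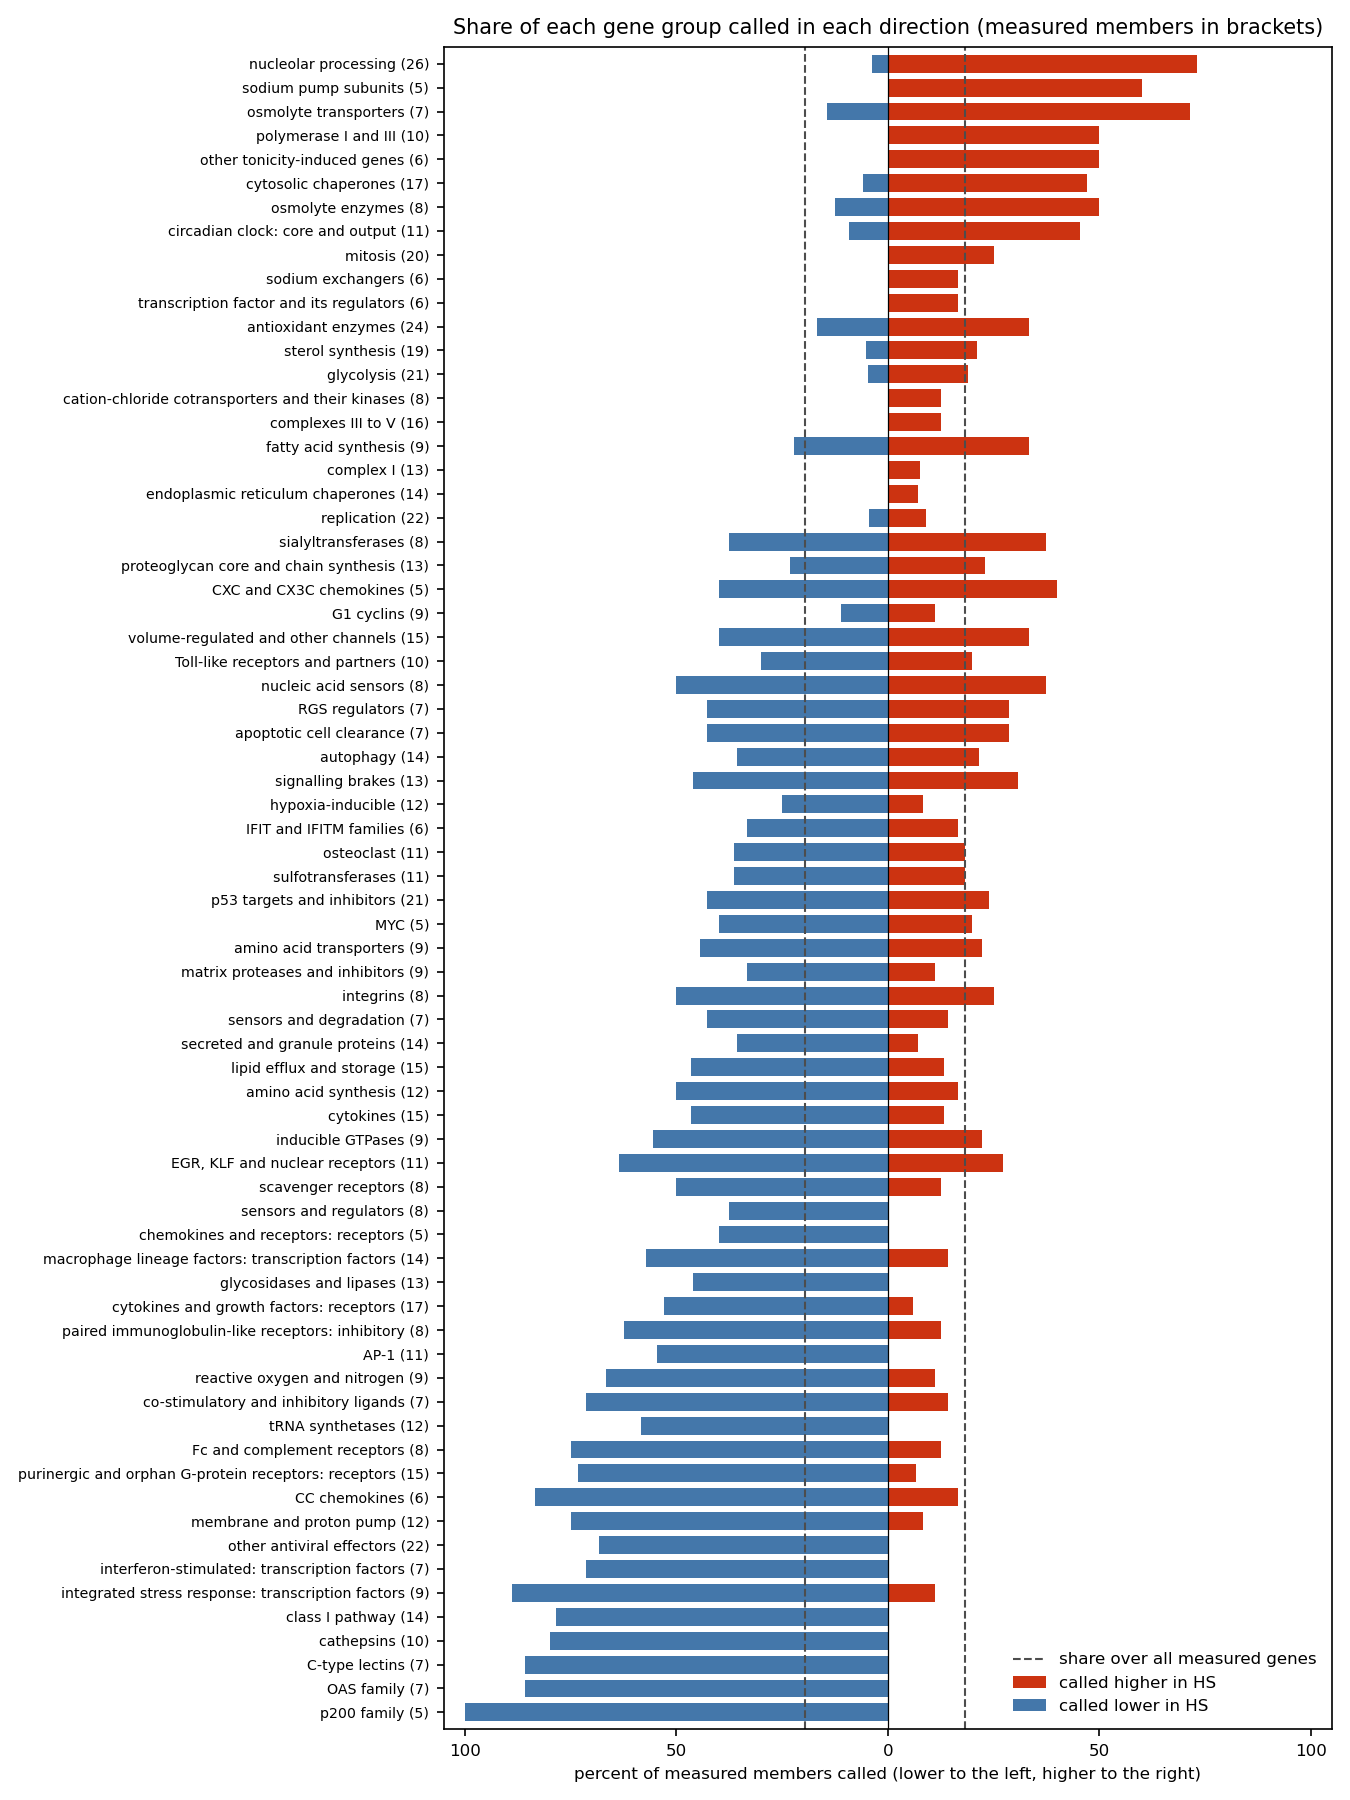
Percentage of measured members called lower (to the left) and called higher (to the right) in HS for each gene group with at least 5 measured members, number measured in brackets; dashed lines mark the shares over all measured genes, 19.7% lower and 18.2% higher. The p200 family, OAS family, C-type lectins, cathepsins and class I pathway lie at the foot of the plot with 0 members called higher, and nucleolar processing genes, with 19 of 26 called higher, at its head.

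The array also carries probes without a gene name, among them probes tiled over regions that its maker lists as long intergenic noncoding RNA (lincRNA). Of 5417 measured lincRNA probes 491 were called higher (9.06%) and 242 lower (4.47%), and over all 8607 unnamed probes the shares were 8.77% and 4.31%. The regions below were chosen after their values were seen, as those holding the probes with the largest differences. Coordinates are those of mm9 in the array's files.

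The largest differences lay in a region at chr16:50752452-50753589, forward strand, where all 3 probes rose. Its leading probe, chr16:50753530-50753589, read -5.35, -6.26 and -4.84 on the NS arrays and -0.55, -0.79 and -0.14 on the HS arrays. It was above background on no NS array, which makes it at least 17.8-fold higher, and the nearest probe with a gene name, that of Dubr 25.4 kb away, gave 0.06 and was not called. At chr10:69844350-69844784 both measured probes rose; they were above background on no NS array, which makes them at least 2.49-fold and 4.29-fold higher. At chr6:31267612-31293337, 2 of 3 reverse-strand probes and 4 of 4 forward-strand probes rose, beside the named gene 2210408F21Rik, above background on no NS array and at least 2.32-fold higher.

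Some of these regions lay next to a gene that moved the same way, and at chr10:69844350-69844784 the nearest probe with a gene name moved the other way. That probe, of Slc16a9 and 96.3 kb from the leading one, gave -1.22. At chr9:81536195-81538236 all 3 probes rose by 3.00 to 3.29, and Htr1b, a serotonin receptor whose probe is about 13 kb away, read -3.65, -3.78 and -4.06 on the NS arrays and -1.92, -1.93 and -1.70 on the HS arrays, a rise of 1.98. At chr2:180161459-180189542, reverse strand, all 3 probes rose by 0.80 to 2.42. The organic anion carrier Slco4a1, whose probe is 47.8 kb from the leading one, rose by 1.94. Slco4a1 read 5.90, 5.61 and 5.89 on the NS arrays and 7.68, 7.69 and 7.85 on the HS arrays. At chr10:96082444-96096696, 2.72 kb from the probe of Btg1, 4 of 5 probes rose. At chr1:175654606-175672031 5.86 kb from the probe of Ifi207, all 5 probes fell, and the leading one was above background on no HS array and at least 1.15-fold lower. Whether such a region and its neighbour are one transcript was not tested.

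**Figure D4:**
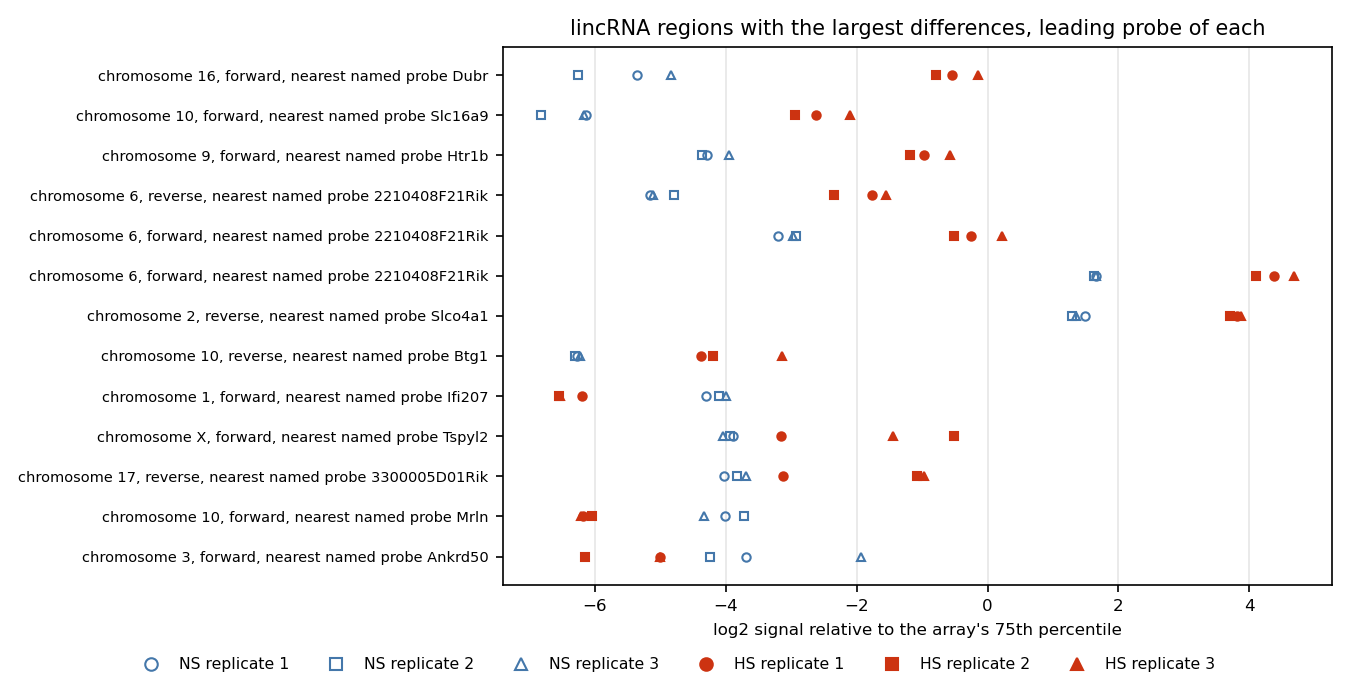
Log2 signal relative to the array's 75th percentile (horizontal axis) of the leading probe of 13 lincRNA regions on each array, open symbols NS and filled symbols HS, each row named by its chromosome, strand and nearest named probe. On chromosome 16 the NS arrays lie between -6.26 and -4.84 and the HS arrays between -0.79 and -0.14, and in all but the lower rows the groups are well apart.

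The same salt dose was also given together with LPS, which asks whether activated cells answer as resting cells do. Another slide, read by the scanner on another day, held the 3 HS+LPS arrays and nothing else used here, so slide and condition cannot be told apart in any value with LPS. The NS+LPS group was itself split, with replicates 1 and 2 on the slide of NS and HS and replicate 3 on a further slide. Of the rises of at least 2-fold without LPS, 101 were called higher with LPS and 1 lower, against 26.4% higher over all tested genes, and the medians were 1.55 without and 1.66 with LPS. Of the 210 falls 158 were called lower with LPS and 11 higher, against 31.7% lower over all tested genes, and the medians were -1.31 and -0.74. The difference between the 2 salt effects was called in 37.0% of all tested genes, in 49 of these rises (30 larger and 19 smaller or opposite with LPS) and in 125 of the 210 falls, of which 111 of the falls were smaller or opposite with LPS. These genes were chosen on their size without LPS, which enters that difference, and so the split is a description.

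The leading rises were also large with LPS. Dntt, Shb and Defa1 rose by 3.25, 2.63 and 3.69 without LPS and by 3.14, 2.25 and 3.43 with it, and Rab15 by 6.18 and 6.84. The activating receptors fell in both settings, Pira7 by 2.76 and 2.66 and Lilra6 by 2.64 and 2.52 on the log2 scale. Other genes parted: Atf3 gave -1.87 without and -0.47 with LPS, Srgn 1.60 and 0.25, and Gfi1 1.37 and 4.06. Gdf15 and Mapkapk3, a kinase of the p38 pathway chosen after its values were seen, changed direction, from -1.93 to 0.84 and from -1.85 to 1.91.

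**Figure D5:**
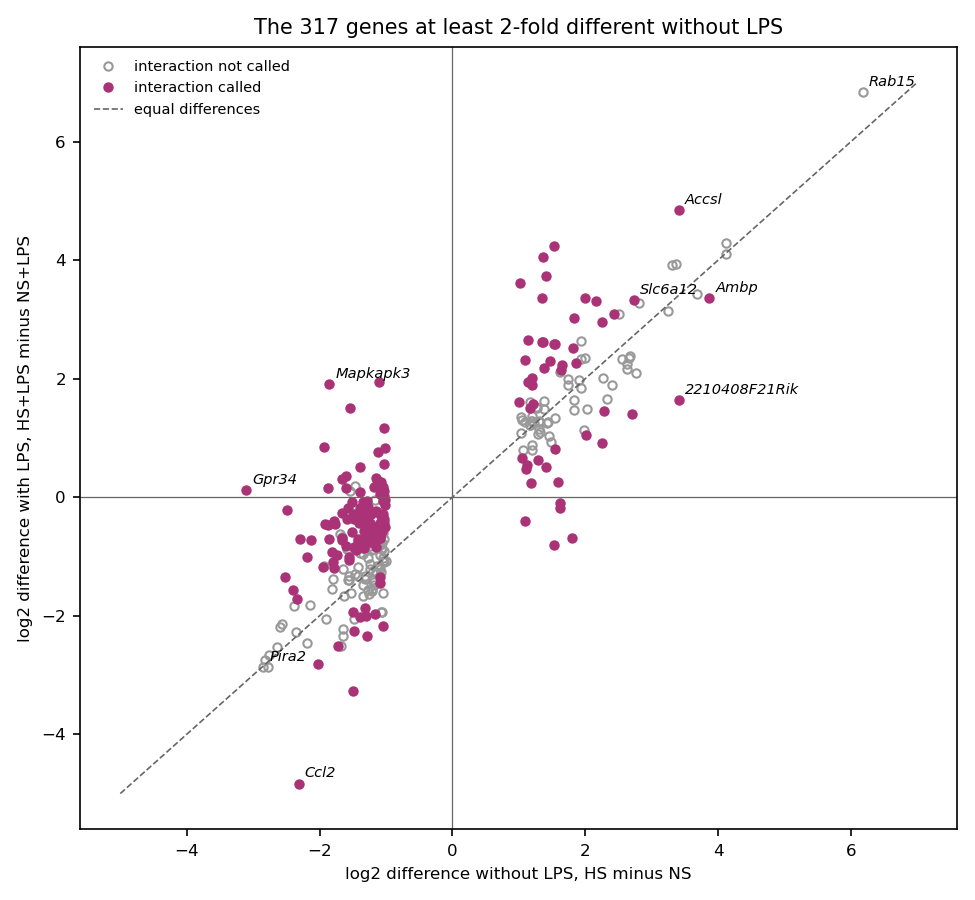
Log2 difference without LPS (horizontal axis, HS minus NS) against that with LPS (vertical axis, HS+LPS minus NS+LPS) for the 317 genes at least 2-fold different without LPS; filled points are genes whose 2 differences were called unequal, and the dashed line marks equal differences. Rises lie on both sides of the line, Rab15 at 6.18 and 6.84 among them, and most falls lie above it, Mapkapk3 at -1.85 and 1.91 the farthest.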

How the data were processed

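RNA of RAW264.7 cells was hybridised to 12 one-colour Agilent arrays in 4 groups of 3, of which the 3 NS and 3 HS arrays are compared here. Per the file headers, the authors scanned the arrays and extracted background-subtracted spot intensities with Feature Extraction 10.7.3.1, and these deposited intensities were the starting point. The log2 of each intensity was taken and the array's 75th percentile over all non-control spots subtracted, so that a printed level is a log2 signal relative to that percentile. The number of arrays limits the precision. Levels of different probes are not compared.

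Of 55681 probes, 27585 were named by accession, 3497 by symbol and 393 by synonym through a RefSeq table, and 24141 stayed unnamed. Each gene was tested on the brightest of its probes that were well above background on all 3 arrays of any group (13220 genes), and HS against NS was counted over the 13009 for which that held in NS or in HS. Differences were tested with limma 3.58.1 in R 4.3.3, with all 12 arrays in the fit (8 residual degrees of freedom) and Benjamini-Hochberg adjustment over all genes tested; SE is the fit's standard error. No label states that the 3 arrays of a group came from different dishes of cells, and a p-value may therefore reflect technical scatter alone. The 6 arrays shared 1 slide, with the NS arrays and HS replicate 1 in its first row and HS replicates 2 and 3 in its second, and the row was tried as a block. That block leaves HS replicate 1 against the NS arrays. The code was tested on simulated data. Tables and figures were made with Python 3.11.15, pandas 2.3.3 and matplotlib 3.10.9.

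A bound ("at least N-fold") sets the mean of the bright group against the lowest signals that were well above background on each array of the dim group, or the dim probe's own signal where that was higher. Genes were named by rule: the 12 largest rises and falls among genes above background on all 6 arrays, the 5 largest bounds each way, up to 6 called members of each gene list by size, and a set of index genes. The genes and lists were chosen with earlier results of these data known. Replicate numbers did not pair the arrays: the correlations of same-numbered deviations were 0.117, 0.0113 and 0.114. Some members of the gene lists are counted but not reported by name here.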

Additional observations from a re-analysis of the deposited data

Results flagged for a closer look

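The salt effect with LPS minus the salt effect without LPS was tested by limma for 43 named genes and was called, at an adjusted p under 0.05 over all genes tested, in 15 of them. All 15 rest on the HS+LPS arrays, whose slide and condition cannot be told apart. In genes that rose without LPS the difference, in log2, was -0.51 for Ambp, 0.59 for the betaine carrier Slc6a12, 0.66 for Tmem38b, 0.47 for the taurine carrier Slc6a6 and 1.22 for aldose reductase Akr1b3. In genes that fell without LPS it was 0.83 for Rgs1, 0.63 for Myh14, 1.41 for Slc8a2, 0.71 for Irf7, -0.80 for Cd36 and -2.52 for the chemokine Ccl2. Of the inflammatory genes, it was 2.48 for Nos2, which makes nitric oxide, 0.26 for Tnf, -3.72 for Il6 and -2.62 for Il1b; Il6 and Il1b were not above background without LPS, so their values come from the LPS groups.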

How the results depend on the processing

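Of 176 called named genes 125 kept call and direction under all 21 alternatives, and 160 whenever 1 NS or HS array was left out. With the slide row as a block 2499 genes were called, 962 higher and 1537 lower, and within row 1, with fewer samples, 1943 were, 770 higher and 1173 lower. The count at 2-fold or more was 149 with normexp background correction and quantile normalization, for which the cause was not tested, and 206 among the fewer genes above background on all 12 arrays. Leaving out 1 NS or HS array at a time gave 3741 to 4607 called genes, 1645 to 2357 higher and 2096 to 2429 lower, and 275 to 348 at 2-fold or more. It gave 4057 to 4671 genes whose salt effects with and without LPS differed, but no LPS array was left out. The replicate block gave 4530 called genes, 2128 higher and 2402 lower, 314 at 2-fold or more, and 4508 for the difference of salt effects; the arrays share only a number. The mean of a gene's probes, which includes the second probe by construction, turned Pirb from 0.18 to -1.03 and the difference of salt effects in Myh14 from 0.63 to -0.12. Normexp with quantile normalization turned that difference in Pira2 from -0.02 to 0.48, for which the cause was not tested. That difference could not be fitted with only the 6 NS and HS arrays, with the shared slide alone, with the row block or within row 1. Signals near background limit what can be said of the dimmest genes.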

Other observations

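Outside the groups described so far, some of the larger differences lay in genes of adhesion, lipid handling and immunity, chosen here after their values were seen. The cell-surface proteoglycan Gpc1 read -3.54, -4.43 and -3.73 on the NS arrays and was above background on no HS array, which makes it at least 1.36-fold lower. Slamf9, of the SLAM receptor family, was not above background on every NS and HS array, so its fitted size is uncertain. It fell by 2.52 on the log2 scale (SE 0.200). The same direction held for Nrp1, a semaphorin and VEGF co-receptor, at -1.90, and for Aif1, the actin-binding macrophage protein also called IBA1, which read 2.58, 2.59 and 2.43 on the NS arrays and 0.92, 1.17 and 0.72 on the HS arrays. Synpo, an actin-associated protein, rose by 2.26 (SE 0.118), and Stard10, a lipid transfer protein, by 1.83. Serinc2 rose by 2.00 on all 3 of its probes. Tert, the catalytic subunit of telomerase, read -1.76, -2.40 and -1.94 on the NS arrays and -0.52, -1.09 and -0.83 on the HS arrays, a rise of 1.22 with no overlap (adjusted p = 0.000761 by limma).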
